A study of Mus musculus with 214 samples.

Results

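WT liver was profiled 2 days after the second of 2 intraperitoneal doses of N-nitrosodimethylamine (NDMA), in 8 NDMA-treated mice and 8 saline controls, 16 of the 213 libraries of the series that carry values. They are all the WT libraries whose labels give day 2 as the time of collection. Both groups were RaDR+/+;GPT+/+ mice on a C57BL6 background, so the controls carry the same pair of reporter transgenes (a recombination and a mutation reporter) as the treated mice, and both have intact Mgmt. NDMA was given at 3.5 mg/kg on postnatal day 8 and at 7 mg/kg on postnatal day 15, controls received saline, and livers were taken on postnatal day 17. The study's methods assign treatments by litter and draw mice from separate litters where possible, and the litter of a mouse is not given in the labels used here, so its part was not tested. Each group held 4 males and 4 females, and all males were sequenced in run 200710Eng and all females in run 200724Eng, so sex and run cannot be told apart either.

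NDMA is a nitrosamine that the cytochrome P450 enzyme CYP2E1 of pericentral hepatocytes, those around the central vein, turns into a methylating agent. The resulting DNA adducts are repaired by base excision and by the methyltransferase MGMT, and lesions that persist block replication or break DNA, which activates p53 and can start interferon signalling. Liver is zonated: pericentral hepatocytes are kept in their state by Wnt signals from central vein endothelium and express glutamine synthetase and drug-metabolizing P450s, while periportal hepatocytes carry the urea cycle and gluconeogenesis.

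Values are normalized counts of 3′ digital gene expression libraries, in which each transcript is read near its 3′ end, so a level is not divided by transcript length. Fold changes compare levels within a gene, and sums over a list and the order of its genes by abundance are in normalized counts. Recovered reads ranged from 392164 to 2329956 per library in saline (median 1636761.5) and from 150038 to 1856525 in NDMA (median 900314). The difference of the mean log10 totals was -0.24, with p = 0.116 in a two-sided exact permutation test over both sexes and all 16 libraries. In males saline ranged from 1596861 to 1715952 reads and NDMA from 887381 to 1856525. In females the 4 NDMA libraries, at 150038 to 913247, all lay below the 3 saline libraries other than D215004, at 1515417 to 2329956. With log2 reads added as a term 284 genes were called in place of 534. Female NDMA D215006 had the fewest reads (150038), and 1 of its reads is worth 10.5 normalized counts. The library labelled saline D215004, a female, had the next fewest (392164).

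The library labelled saline D215004 went against its label. It was compared with every other library by a chi-square test of whole reads over genes, in which sampling alone gives about 1 per degree of freedom. Its value against female NDMA D215005 was 1.42, the lowest of the 120 pairs of day 2 libraries, and the next lowest of all, between NDMA males D202006 and D202007, was 1.88. Where 2 libraries differ beyond sampling, this value grows with their reads. D215004 and D215005 held 392164 and 913247 reads, and D202006 and D202007 held 1856525 and 1198470. The order of these pairs is therefore not a measure of closeness at equal depth. Against the other 7 saline libraries D215004 gave 17.4 to 33.5. The other 56 pairs of a saline with an NDMA library gave 13.8 to 53.8. Genes were then taken that were called in the 8 males alone, without any female library, and the mean log2 level of those lower under NDMA was subtracted from that of those higher. The choice of genes sets the males apart, so only the females are read here. This difference was 1.13 in D215004, between -0.75 and -0.62 in the other 3 female saline libraries, and between 0.79 and 1.31 in the 4 female NDMA libraries. Xist and the Y-linked genes matched the labelled sex in all 16 libraries. This comparison covers counting error of reads only, and whether D215004 and D215005 hold RNA of 1 mouse cannot be told from it. Both were kept as separate libraries under their labels. What made D215004 differ from the other controls was not tested. Each result below is therefore given over all 16 libraries and, where it bears on the result, over the 14 without D215004 and D215006. D215004 was picked out by its values in genes that respond, so leaving it out widens the group difference by construction. More calls and less overlap in any fit without it are therefore not independent support for a result.

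**Figure D1:**
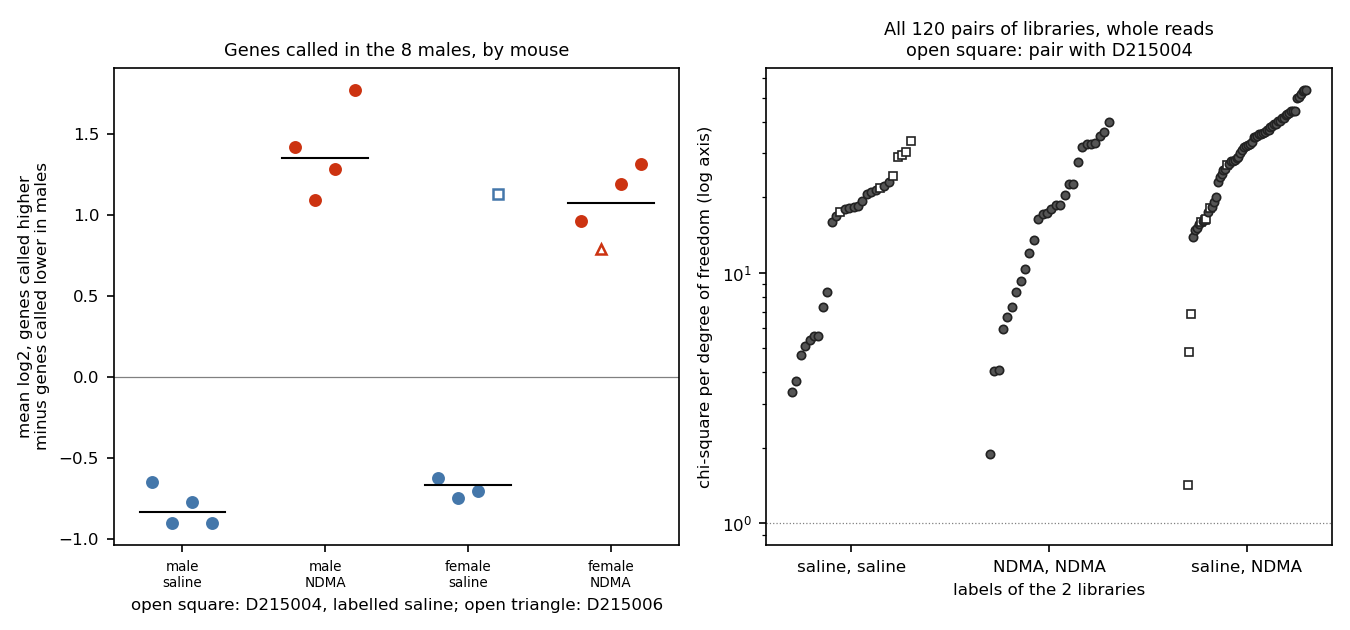
Left, mean log2 level of genes called higher minus genes called lower in the 8 males, 1 point per mouse by sex and treatment, with lines at group medians. Right, chi-square per degree of freedom of whole reads (log axis) for all 120 pairs of libraries, in rising order within each kind of pair, with the dotted line at the value sampling alone would give. D215004 (open square) sits at 1.13 among the NDMA mice, and its pair with D215005 is the lowest point at 1.42.

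Over all 16 libraries, 285 genes rose and 249 fell under NDMA of 8568 tested, that is, 3.33% and 2.91% (6.23% in either direction). Genes averaging 5 or more normalized counts over the 16 libraries were tested. This mean is over both groups, so a gene low in saline can pass through its NDMA values alone. Among the genes named below, Eda2r, Ckap2, Bex1 and Brca1 passed in this way, with saline means of 4.44, 4.69, 3.25 and 4.41. Tgtp1 and Polk also did, and this list may not be complete. The test was limma on log2(normalized count + 1) with the run as a term, calls needed a log2 fold change beyond 0.58 in size and an adjusted p (Benjamini-Hochberg) under 0.05, and 1806 genes had an unadjusted p under 0.05. Fold changes on this scale understate the change of low genes, and the p-values measure the spread among these mice alone. Without D215004 and D215006, 618 rose and 617 fell of 8530 (7.25% and 7.23%, 14.5% together), and 273 of the 285 and 240 of the 249 were among them. Of the 534 calls over 16 libraries, 322 were called in each of the 16 fits that left out 1 library, and genes that were not are named with the number of these fits that lost them. Of the 322, 235 were also called with the log2 number of reads of each library as a term, and 151 in limma on the 13 libraries of the count tests. These 13 lack 3 saline libraries and hold all NDMA libraries. Of the genes named in the text, Apoc3, Car2, Cps1, Cxcl12, Eda2r, Elovl5, Fga, Gbp4, Gpc3, H2-Ab1, Ly6c2, Mgmt, Mrc1, Psmb10, Rspo3 and Zmat3 were called in all 16 fits but not with the reads term (adjusted p up to 0.121, or for Apoc3 and Cps1 a fold change under the threshold). Another set was called in all of these but not on the 13 libraries, namely Acot12, Apoa4, C3, Cd3d, Cela1, Cyp2c67, Dbp, Ecm1, Elovl2, Ephx1, G6pc, Gbp2, Gbp3, Gstm2, Igfals, Igtp, Irf7, Irgm1, Lyz2, Mad2l2, Oat, Pigr, Postn, Prlr, Reln, Rhbg and Sdf2l1. The NDMA and saline libraries did not overlap in 53 genes over all 16 libraries (0.619% of those tested), with NDMA above in 32 (0.373%) and below in 21 (0.245%). Without D215004 they did not overlap in 290 (3.38%), 160 above (1.87%) and 130 below (1.52%), and without both libraries in 411 (4.8%), 235 above (2.74%) and 176 below (2.05%). Of the 1235 genes called without both libraries, D215004 lay inside the range of the other NDMA libraries alone in 652 and inside that of the other saline libraries alone in 184.

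The strongest rises among genes averaging 20 or more normalized counts were those of Ubd, Cox6b2, Cdkn1a, Cxcl9, Saa3, Ddit4l, Ccng1, Spink1, Gm12250, Saa1, Ly6a and Cxcl10, between 3.92 and 2.51 on the log2 scale. The deepest falls were those of Pnliprp1, Cyp1a2, Postn, Glul, Slc1a2, Oat, Cyp2e1, Ecm1, Cyp3a16, Nxpe2, Rdh9 and Reln, between -2.87 and -1.80. The calls of Pnliprp1, Nxpe2 and Slc1a2 were lost in 6, 3 and 3 of the 16 fits without 1 library (adjusted p up to 0.0588, 0.0588 and 0.0516). Each of these 24 kept its direction in every setting in which it was tested. By the smallest adjusted p in limma, the leading genes included 1810053B23Rik, Gsta2, Ccng1, Wfdc17 and Tgtp1 among those that rose and Lect2, Cyp3a16, Rdh9, Inhbc and Chp1 among those that fell. Crip1 (log2 fold change 1.23) and Apoc2 tied with Tgtp1 in the digits printed (adjusted p = 0.000178).

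Cdkn1a, which encodes the cell cycle inhibitor p21 (GRCm38 chr17:29090976-29100727), stood at 4.02 to 35.8 normalized counts in 7 saline libraries (median 14.5) and at 167 to 421 in the 8 NDMA libraries (median 210.1). D215004 stood at 212, inside the NDMA range, and the other 7 controls lay below every treated mouse. The log2 fold change over 16 libraries was 3.35 (SE 0.55, adjusted p = 0.00199), and 3.69 without D215004 and D215006. Ccng1, cyclin G1 of the p53 feedback loop (chr11:40748552-40755311), stood at 3.01 to 13.5 in the 7 controls, at 50.2 in D215004 and at 42.1 to 86.5 under NDMA, a log2 fold change of 2.85 (SE 0.35, adjusted p = 0.000161). Of 22 p53 targets of arrest and feedback 14 passed the filter on low values, and 7 of these rose and none fell, with a median log2 fold change of 0.86 against -0.08 over all genes tested. The other 5 that rose were Phlda3, an inhibitor of Akt signalling, at 3.35, Ddit4l at 2.99, Zmat3 at 1.88, Trp53inp1 at 1.29 and Dcxr at 0.63. The calls of Trp53inp1 and Dcxr were lost in 9 and 7 of the 16 fits without 1 library. Without both libraries 9 rose and 1 fell. Mdm2, the ubiquitin ligase that degrades p53, had 2.34 to 11.8 in the 7 controls and 10.1 to 20.1 under NDMA, with a log2 fold change of 0.89 (SE 0.31) and an adjusted p of 0.0817, and was called only once both libraries were left out (1.04, adjusted p = 0.00978).

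Among p53 targets of cell death, 2 of 12 tested rose and none fell (20 listed, median 0.15). Bax, which opens the outer mitochondrial membrane, stood at 14.1 to 39.0 in the 7 controls, at 81.1 in D215004 and at 54.6 to 137 under NDMA (log2 fold change 1.74, SE 0.29, adjusted p = 0.00114). Eda2r, a receptor of the TNF family, was at 0 to 0.778 in the 7 controls and at 1.89 to 30.9 under NDMA, with D215004 at 34.8 above them all (2.74, SE 0.62, adjusted p = 0.00925). Eda2r passed the filter on low values only through the NDMA libraries, with a mean of 4.44 in saline and 12.7 under NDMA, and the count of 2 includes it. The death receptor gene Fas had a log2 fold change of 0.12 (SE 0.17, adjusted p = 0.762).

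The promoters of Cdkn1a and Ccng1 are shown because each holds a match to the p53 response element within 250 bases before to 50 after an annotated start. The sequence searched was that of the p53 response element without a spacer, 20 bases long, with at most 2 letters off and the C and G of both cores kept, on both strands. It was found in 0.392% of the 27025 genes with a window, in 0.496% of the 6853 tested genes with one, in 2.31% of those called higher, in 2.08% of those called lower, and in 2 of the 7 genes of both p53 lists that rose and had one. Capitals mark the match. The windows are chr17:29090729-29091028 on the plus strand for Cdkn1a and chr11:40755237-40755536 on the minus strand for Ccng1, from RefSeq on GRCm38.p6.
Cdkn1a: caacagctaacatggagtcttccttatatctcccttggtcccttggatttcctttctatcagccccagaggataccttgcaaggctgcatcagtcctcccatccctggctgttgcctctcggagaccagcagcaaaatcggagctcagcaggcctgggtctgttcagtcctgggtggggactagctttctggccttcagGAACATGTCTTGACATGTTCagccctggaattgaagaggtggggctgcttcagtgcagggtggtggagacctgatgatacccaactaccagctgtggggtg
Ccng1: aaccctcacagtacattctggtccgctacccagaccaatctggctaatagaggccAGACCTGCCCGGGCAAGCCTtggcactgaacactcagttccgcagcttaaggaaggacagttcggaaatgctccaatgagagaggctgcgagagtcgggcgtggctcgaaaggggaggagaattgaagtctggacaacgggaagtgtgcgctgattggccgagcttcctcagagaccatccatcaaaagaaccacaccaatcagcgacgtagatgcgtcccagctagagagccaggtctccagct
In Cdkn1a the match begins 51 bases before the start and in Ccng1 195 bases before it. A match describes these letters and does not show binding.

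Mgmt itself, the methyltransferase that reverses methylated guanine (chr7:136894614-137130266), rose from 13 to 44.8 normalized counts in the 7 controls (median 27.2) to 47.3 to 116 under NDMA (median 81.0), with D215004 at 85. Its log2 fold change was 1.36 (SE 0.31, adjusted p = 0.00969), and without both libraries 1.49. It was the one called gene among 13 tested of base excision and direct reversal, whose median was -0.10. Among 26 tested genes of mismatch repair, nucleotide excision, break repair and bypass, 3 rose and none fell, with a median of 0.04, beside 3.33% higher of all genes tested. Polk, a translesion DNA polymerase, stood at 1.00 to 5.45 in the 7 controls, at 3.86 in D215004 and at 4.46 to 21 under NDMA (1.88, SE 0.35, adjusted p = 0.00234). A value of 3.86 in D215004 is 1 read, so its place between the groups is not resolved. Polk passed the filter on low values only through the NDMA libraries, and the count of 3 includes it. The others were Lig1, the replicative DNA ligase, at 0.94 and Mad2l2, a subunit of polymerase zeta, at 0.66, and the call of Lig1 was lost in 6 of the 16 fits without 1 library. Xpc of nucleotide excision had a log2 fold change of 0.39 (adjusted p = 0.700) and Brca1 one of 0.42 (adjusted p = 0.726).

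Interferon gamma targets had the largest share of called members among the lists with more than 10 tested genes. Of 22 tested members among 30, 15 rose and none fell, 21 had a fold change above 0, and the median was 1.19. Ubd, which encodes the ubiquitin-like modifier FAT10 (chr17:37193892-37196095), stood at 3.25 to 11.1 normalized counts in the 7 controls (median 8.56), at 151 in D215004 and at 117 to 273 under NDMA (median 192). Its log2 fold change was 3.92 (SE 0.50, adjusted p = 0.000264) over all libraries and 4.36 without both. The chemokine gene Cxcl9 stood at 9.01 to 23.1 in the 7 controls, at 162 in D215004 and at 133 to 326 under NDMA (3.10, SE 0.41). Cxcl10, a ligand of the same receptor CXCR3, stood at 13 to 41.7, 259 and 119.6 to 299 (2.51, SE 0.39). In all 3 the 7 other controls lay below every treated mouse.

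The guanylate binding protein Gbp2, a GTPase of defence against intracellular pathogens, stood at 14.1 to 47.3 in the 7 controls, at 243 in D215004 and at 79.1 to 215 under NDMA (1.96, SE 0.38, adjusted p = 0.00431). Its relatives Gbp3, Gbp4, Gbp7 and Gbp9 rose by 1.80, 1.83, 1.78 and 1.2, the last lost in 9 of the 16 fits without 1 library. Tgtp1, an immunity-related GTPase, was at 0 to 2.72 in the 7 controls and at 10.1 to 52.6 under NDMA, and the 7 controls lay below every treated mouse (3.29, SE 0.42, adjusted p = 0.000178). D215004, at 3.86, held 1 read. Tgtp1 was under 5 in every saline library, so it passed the filter on low values only through the NDMA libraries. Reads of Tgtp1 may be shared with its near-identical neighbour Tgtp2. Other members of that family rose by 1.30 (Iigp1), 1.17 (Igtp), 1.02 (Irgm2) and 0.74 (Irgm1).

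Of 39 tested type I interferon effectors 11 rose and none fell (46 listed, median 0.63), and 18 rose without both libraries. Isg15, a ubiquitin-like modifier, stood at 0 to 9.34 in the 7 controls, at 15.5 in D215004 and at 11.8 to 42.1 under NDMA (2.13, SE 0.41, adjusted p = 0.00312). The nucleic acid sensor Zbp1 rose by 2.18, the transcription factor Irf7 by 1.00 and the Isg15 protease Usp18 by 0.76, a call lost in 9 of the 16 fits without 1 library. Ifit1, an RNA-binding effector, had 0.76 with an adjusted p of 0.0917 over 16 libraries and 0.84 with 0.00492 over 14.

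Antigen presentation moved in part. Of 19 tested genes of MHC class I presentation, 5 rose and none fell (median 0.10, 8 higher without both libraries), and 4 of the 5 encode parts of the immunoproteasome or its activator. Psmb9 stood at 50.9 to 123 in the 7 controls, at 309 in D215004 and at 261 to 335 under NDMA (1.78, SE 0.27, adjusted p = 0.000620). Psmb8, Psmb10 and Psme1 rose by 1.54, 0.91 and 0.66, and the peptide transporter Tap1 by 1.58. The call of Tap1 was lost in 9 of the 16 fits without 1 library, and Psme1 had 0.56 without saline D215001. By contrast none of the 33 constitutive proteasome subunits was called in either direction by limma over 16 or over 14 libraries (median 0.07), though 2 rose with all libraries scaled to 1 common total. B2m, the light chain of class I, had 0.34 (adjusted p = 0.412) over 16 libraries and 0.64 (adjusted p = 6.54e-06) over 14. Class II genes gave 2 higher of 8 tested, Cd74 (1.02) and H2-Ab1 (1.00), and 6 without both libraries. The call of Cd74 was lost in 11 of the 16 fits without 1 library (adjusted p up to 0.0928).

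The promoters of Cxcl10, Gbp2 and Tgtp1 are shown because interferon genes that rose often held the interferon-stimulated response element, searched on both strands as GAAA, any 2 bases and again GAAA. It was in 3.99% of the 27025 genes with a window and in 4.22% of the tested genes with one. Of called genes with a window, it was in 11.1% of the 216 higher and in 3.65% of the 192 lower. Of members of both interferon lists with a window, it was in 54% of all 50 and in 68.8% of the 16 called higher. Thus it marks the lists whether or not a member was called. The windows are chr5:92348840-92349139 on the minus strand for Cxcl10, chr3:142620413-142620712 on the plus strand for Gbp2 and chr11:48992197-48992496 on the minus strand for Tgtp1, from RefSeq on GRCm38.p6, with the match in capitals.
Cxcl10: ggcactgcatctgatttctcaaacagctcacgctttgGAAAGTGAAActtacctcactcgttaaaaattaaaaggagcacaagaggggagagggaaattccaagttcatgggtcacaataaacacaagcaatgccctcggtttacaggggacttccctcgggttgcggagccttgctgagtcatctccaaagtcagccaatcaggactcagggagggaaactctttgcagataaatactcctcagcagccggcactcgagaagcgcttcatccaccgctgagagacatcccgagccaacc
Gbp2: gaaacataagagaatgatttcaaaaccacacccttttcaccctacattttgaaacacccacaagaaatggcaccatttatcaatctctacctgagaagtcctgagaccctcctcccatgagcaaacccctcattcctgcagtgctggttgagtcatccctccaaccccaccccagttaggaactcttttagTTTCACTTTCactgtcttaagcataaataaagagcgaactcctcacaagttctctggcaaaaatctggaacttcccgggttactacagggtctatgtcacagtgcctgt
Tgtp1: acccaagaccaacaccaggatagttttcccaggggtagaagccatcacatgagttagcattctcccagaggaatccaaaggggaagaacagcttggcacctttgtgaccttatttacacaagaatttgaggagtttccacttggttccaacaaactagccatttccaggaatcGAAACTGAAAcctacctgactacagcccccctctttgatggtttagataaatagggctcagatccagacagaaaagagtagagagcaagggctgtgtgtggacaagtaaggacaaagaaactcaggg
The match begins 213, 59 and 77 bases before the start, in this order, and in Gbp2 it is read on the opposite strand. The gamma-activated site, searched as TTCNNNGAA, was in 9.55% of all genes with a window. It was in 15.7% of those called higher and in 10.4% of those called lower. Of the list members with a window, it was in 28% of all 50 and in 31.2% of the 16 called higher.

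**Figure D2:**
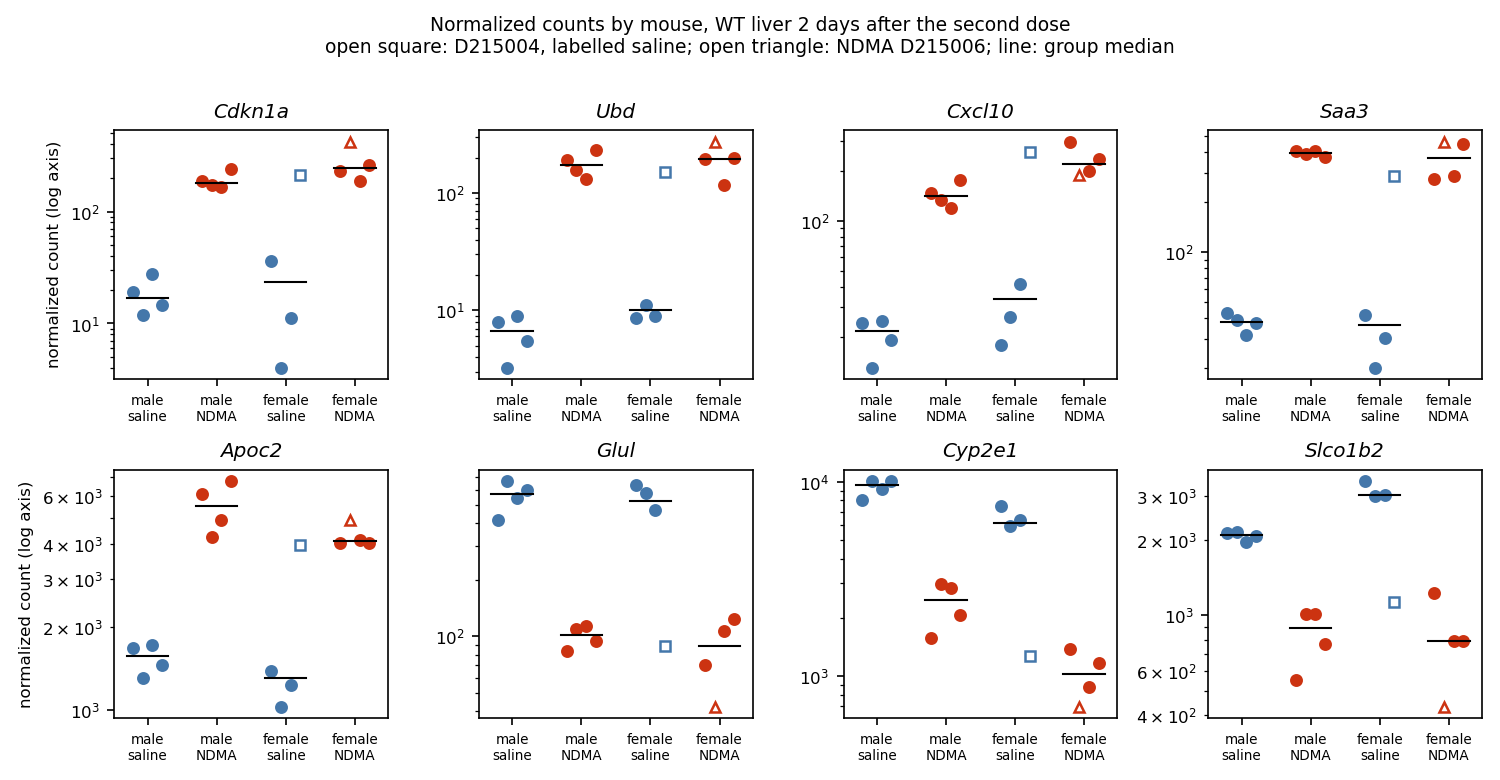
Normalized counts (log axis) of 8 genes in each of the 16 mice, by sex and treatment, with lines at the median of each group of 4. In Cdkn1a, Ubd, Cxcl10, Saa3 and Apoc2 the NDMA mice lie above, and in Glul, Cyp2e1 and Slco1b2 below, every saline mouse other than D215004 (open square), which lies within the NDMA range in all but Apoc2.

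Pericentral hepatocyte genes fell together. Of 29 tested among 37, 17 fell and none rose, with a median log2 fold change of -1.21 against -0.08 over all genes, and without both libraries 21 fell and 1 rose. Glul, glutamine synthetase of the last hepatocytes before the central vein (chr1:153899944-153909723), stood at 413 to 669 normalized counts in the 7 controls (median 577), at 88.9 in D215004 and at 42.1 to 124 under NDMA (median 101). Its log2 fold change was -2.29 (SE 0.34, adjusted p = 0.000620). Cyp2e1, whose enzyme activates NDMA (chr7:140763739-140774987), stood at 5883 to 10073 in the 7 controls, at 1267 in D215004 and at 694 to 2989 under NDMA (-2.07, SE 0.29, adjusted p = 0.000403). In both genes all 7 other controls exceeded every treated mouse.

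Cyp1a2, another P450 of foreign compounds, stood at 736 to 2373 in the 7 controls, at 313 in D215004 and at 88.9 to 349 under NDMA (-2.67, SE 0.40). Oat, ornithine aminotransferase, stood at 463 to 833, 228 and 31.6 to 291 (-2.15, SE 0.40). The ammonium transporter gene Rhbg, the Wnt deacylase gene Notum and the glutamate transporter gene Slc1a2 fell by 2.68, 2.13 and 2.19 on the log2 scale, and Rgn, Gulo and Lect2 by 1.56, 1.49 and 1.43. Axin2, a Wnt target, had a mean under 5 and was not tested. Rspo3, the Wnt enhancer made by central vein endothelium and kept in the endothelial list, stood at 15.4 to 33.8 in the 7 controls, at 23.2 in D215004 and at 0 to 10.9 under NDMA, so that the groups did not overlap (-1.78, SE 0.43, adjusted p = 0.0135). D215004 was with the controls in Rspo3 and with the treated mice in Glul. In bulk liver, fewer cells of a type and less RNA per cell cannot be told apart.

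Periportal genes showed no such shift: of 32 tested, 2 rose and 3 fell, and the median was 0.02. Those that fell were Cps1, the entry enzyme of the urea cycle (-0.90), G6pc (-0.92) and Pck1 (-0.61), both of gluconeogenesis, and those that rose were Apoa4 (1.58) and the immunoglobulin receptor gene Pigr (1.06). The call of Pck1 was lost in 3 of the 16 fits without 1 library, and 4 of the 32 rose without both. The periportal Cyp2f2 had 0.44 (SE 0.19, adjusted p = 0.176) over 16 libraries and 0.64 (adjusted p = 0.000802) over 14.

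Among 34 tested cytochromes P450 and partners of foreign compounds, 14 fell and 1 rose, Cyp2c67 at 1.08, with a median of -0.60, 20 fell and 3 rose without both libraries, and 11 fell and 2 rose with all libraries scaled to 1 common total. Members of the Cyp2c family are close copies, so reads may be split among them. Cyp3a16, a neonatal form, fell by 1.94 on the log2 scale, Cyp2a5 by 1.41 and Por, the shared reductase, by 0.60, the last lost in 7 of the 16 fits without 1 library. In the glutathione and Nrf2 list 6 rose and 3 fell of 45 tested (median 0.08), and 12 rose and 4 fell without both libraries. Gsta2, an alpha class glutathione S-transferase, stood at 11.9 to 22.1 in the 7 controls, at 27.0 in D215004 and at 37.9 to 80.1 under NDMA, without overlap (1.57, SE 0.19, adjusted p = 0.000161), though reads may be shared with Gsta1. Ephx1, microsomal epoxide hydrolase, rose by 1.32, while Cat, catalase, fell by 1.14 and Gstm2 by 0.88. Nqo1 and Gclc, both classical Nrf2 targets, had 0.36 (adjusted p = 0.594) and -0.39 (adjusted p = 0.392).

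Bile acid genes fell, 13 of 24 tested with none higher and a median of -0.67, and 14 fell without both libraries. After scaling all libraries to 1 common total, 6 of the 24 fell and the median was -0.59. Slco1b2, a basolateral uptake transporter, stood at 1955 to 3435 in the 7 controls, at 1136 in D215004 and at 431 to 1233 under NDMA (-1.52, SE 0.23, adjusted p = 0.000450). The synthesis enzyme gene Hsd3b7 fell by 1.22 on the log2 scale, the uptake transporter gene Slc10a1 by 1.04, the export pump gene Abcb11 by 0.60 and the nuclear receptor gene Nr0b2 by 0.82. The calls of Abcb11 and Nr0b2 were lost in 13 and 11 of the 16 fits without 1 library (adjusted p up to 0.102 and 0.118). Cyp7a1, the rate-limiting enzyme of bile acid synthesis, had -0.53 (SE 0.21, adjusted p = 0.141). None of the 22 tested genes of cholesterol synthesis was called by limma, with a median of -0.45, and 7 fell without both libraries.

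Genes for plasma proteins of hepatocytes gave 8 lower and none higher of 35, with a median of -0.41, and 15 lower and 2 higher without both libraries. Alb, serum albumin, stood at 112700.0 to 144947 in the 7 controls, at 61606 in D215004 and at 49769 to 83480.3 under NDMA (-0.92, SE 0.15, adjusted p = 0.000979). Ttr, transthyretin, did not follow, at 46782 to 69847 in the 7 controls, 50406 in D215004 and 50607 to 73452 under NDMA (0.01, SE 0.10, adjusted p = 0.954). Itih1, Itih2 and prothrombin, F2, fell by 1.18, 1.02 and 0.96 on the log2 scale. Among acute phase genes 7 rose and 4 fell of 32, and 7 rose and 7 fell without both libraries. Saa1 stood at 68.6 to 127 in the 7 controls, at 618 in D215004 and at 505 to 884 under NDMA (2.55, SE 0.32), and Saa3 at 20.1 to 43.2, 286 and 275 to 463 (3.05, SE 0.39). Reads of Saa1 and Saa2 may be shared. Orm1 rose by 2.33 and Lcn2, a siderophore-binding protein, by 1.64, while the complement gene C3 fell by 0.78 and the fibrinogen genes Fga and Fgg by 0.69 and 0.67 (Fgg lost in 5 of the 16 fits without 1 library), and haptoglobin, Hp, had 0.11 (adjusted p = 0.785).

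In lipid handling, 5 rose and 3 fell of 23 tested genes of lipid droplets and lipoproteins, and 5 rose and 5 fell without both libraries. Apoc2, the cofactor of lipoprotein lipase, stood at 1026 to 1722 in the 7 controls and at 4049.9 to 6791 under NDMA, with D215004 at 3964 just below the treated mice (1.61, SE 0.21, adjusted p = 0.000178). An overlapping gene model, Gm44805, may share its reads. Apoa4, Fabp2, Apoc3 and Apoc1 rose by 1.58, 1.05, 0.70 and 0.62 (Apoc1 had 0.55 without NDMA D215006), while Lpl, the lipase itself, fell by 1.25, Lipc by 0.96 and Mttp by 0.92. Of 36 tested genes of fatty acid oxidation and ketogenesis 3 fell, among them Acot12 (-0.67), and none rose (median -0.30), while 6 fell without both libraries. Fatty acid synthesis gave 2 lower of 20, Elovl2 and Elovl5, and 3 lower and 2 higher without both libraries. Branched-chain amino acid catabolism gave 1 lower of 24, Aldh6a1 (-1.11), and 5 lower without both libraries. In the tryptophan to NAD pathway 1 of 14 rose, the nicotinamide methyltransferase gene Nnmt (1.69).

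Of 74 tested nuclear-encoded subunits of the respiratory chain and ATP synthase 20 rose and 1 fell, and 62 had a fold change above 0, with a median of 0.39. Cox7a2, a subunit of cytochrome c oxidase, stood at 1554 to 2045 in the 7 controls, at 2762 in D215004 and at 2726 to 4959 under NDMA (0.88, SE 0.14, adjusted p = 0.000526). Uqcr10 of complex III and Atp5j2 of ATP synthase rose by 0.81 and 0.85, and in neither did the groups overlap. Sdha of complex II was the member that fell (-0.59), a call lost in 12 of the 16 fits without 1 library (adjusted p up to 0.109). Atp5b had -0.21 (adjusted p = 0.310) and Cox4i1 0.36 (adjusted p = 0.0873). These transcripts are short, with a median length of 655 bases. The fold change moved with transcript length over all genes: with tested genes in 4 equal bins of length, its median was 0.08 in the shortest bin (median length 789.5 bases) and -0.16 in the longest (4227.5 bases), and 150 genes of the shortest bin rose against 23 of the longest. Among other tested genes in the length range of the respiratory chain list, the median was 0.03 and 5.43% rose, against 27.0% of the list. The part of transcript length in the list's values was not tested further. Cox6b2, the testis-type isoform of a cytochrome c oxidase subunit and not counted in the list, rose from 4.33 to 10.1 in the 7 controls to 78.3 to 202 under NDMA, with D215004 at 124 (3.42, SE 0.50). Of 67 tested cytosolic ribosomal proteins 1 rose, Rps19 (0.77, but adjusted p = 0.0536 without saline D215002), and none fell (median 0.25), while 14 rose and 1 fell without both libraries and 6 rose with all libraries scaled to 1 common total.

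Of 32 tested genes of division 2 rose, Ckap2 (1.64) and Prc1 (0.84), both of the mitotic spindle, and none fell (median 0.33), and 8 rose without both libraries. Ckap2 passed the filter on low values only through the NDMA libraries, with a mean of 4.69 in saline and 12.9 under NDMA. The calls of Ckap2 and Prc1 were each lost in 9 of the 16 fits without 1 library (adjusted p up to 0.0693 and 0.0838). Of 28 genes of replication 1 rose, Lig1, and none fell (median 0.10), and 2 rose and 1 fell without both libraries. Mki67, a marker of cycling cells, stood at 4.02 to 12.7 in the 7 controls and at 2.06 to 18.2 under NDMA (0.31, SE 0.38, adjusted p = 0.702), and Pcna had 0.10 (SE 0.28, adjusted p = 0.871). Top2a had 0.79 (adjusted p = 0.118). Among growth hormone and IGF genes, Igfals and Prlr fell by 1.46 and 0.71 on the log2 scale, 5 of 19 fell without both libraries, and Igf1 stayed between 1734 and 2173 in the 7 controls and 1689.7 and 2197 under NDMA. Of 14 tested oncofetal and imprinted growth genes 3 rose and 1 fell, and 4 rose and 3 fell without both libraries. The trypsin inhibitor gene Spink1 stood at 21.1 to 59.2 in the 7 controls, at 459.7 in D215004 and at 198 to 543 under NDMA (2.77, SE 0.49, adjusted p = 0.00315), the trefoil factor gene Tff3 rose by 1.66 and Bex1 by 1.88, the last lost in 7 of the 16 fits without 1 library, and Gpc3 fell by 1.03. Afp had -0.38 (adjusted p = 0.484).

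No gene of 16 tested immediate early and AP-1 genes was called by limma over 16 libraries, and 1 rose and 1 fell over 14. In the integrated stress and unfolded protein response 1 of 32 rose, Sdf2l1 (1.09), and 2 fell, Pdia4 (-0.77) and Shmt2 (-0.66), lost in 9 and 4 of the 16 fits without 1 library. Among 29 tested liver transcription factors and nuclear receptors 1 fell, Nr0b2, and 4 fell without both libraries, and Hnf4a had 0.06 (adjusted p = 0.885). The clock gave Dbp higher (1.03) and Bhlhe40 lower (-1.04) of 15. Among annexins, S100 partners, tubulins and actin genes 7 rose and 3 fell of 32, 12 rose and 6 fell without both libraries, 7 rose and 1 fell with all libraries scaled to 1 common total, and Lgals1, a galectin, stood at 73.4 to 124 in the 7 controls, at 390.2 in D215004 and at 309 to 809.9 under NDMA (1.94, SE 0.28), with Lgals3 at 1.67 and S100a6 at 1.72. Chemokines and cytokines of injured liver gave 7 higher and 1 lower of 21, with the monocyte attractant Ccl2 at 2.10, Ccl6 at 1.30 and, lower, Cxcl12 at -0.996. The urea cycle and gluconeogenesis list repeated the 3 that fell of the periportal genes, of 23, and gave 5 lower and 1 higher without both libraries.

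**Figure D3:**
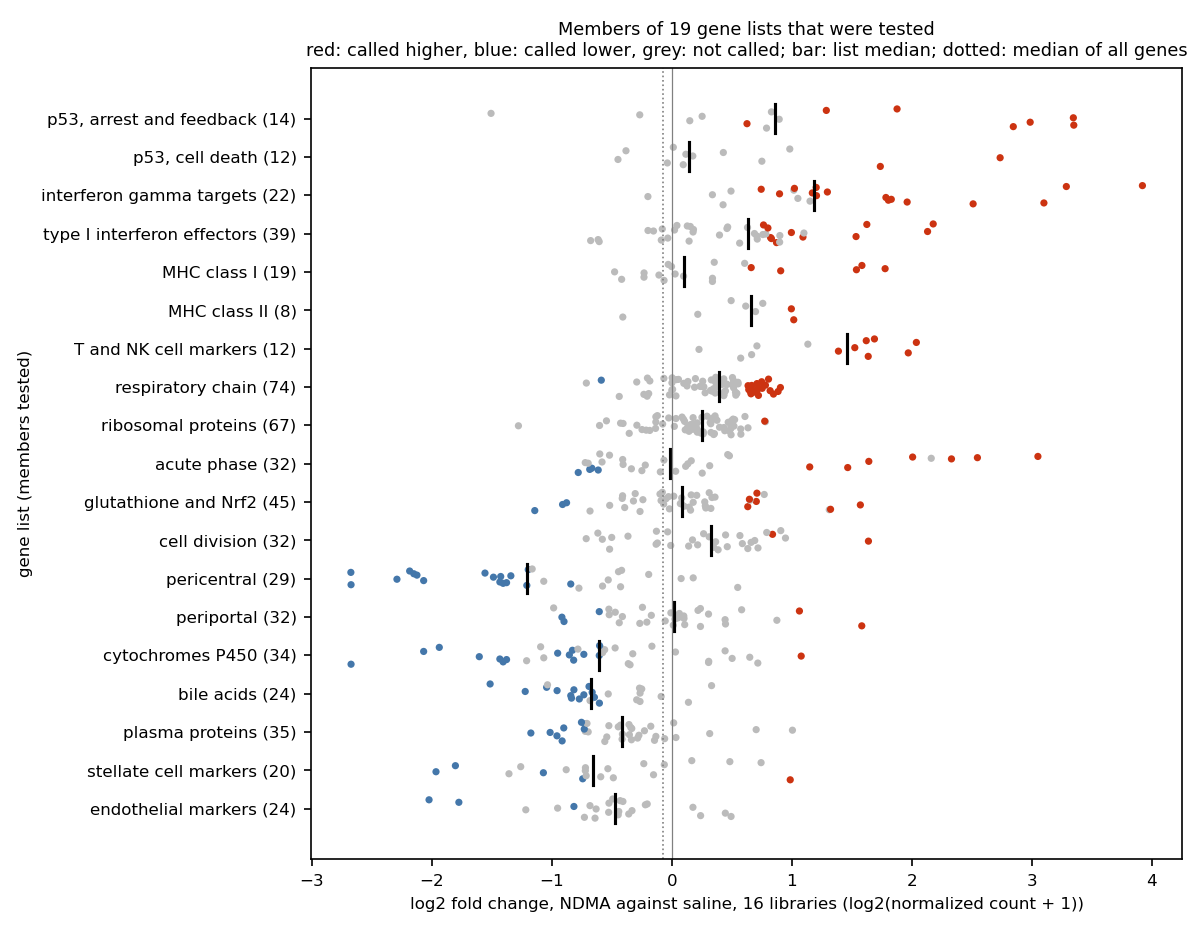
Log2 fold change of each tested member of 19 gene lists, NDMA against saline over 16 libraries, with the number tested in brackets. Red points were called higher, blue points lower and grey points neither, black bars give list medians (1.19 for interferon gamma targets, -1.21 for pericentral genes), and the dotted line is the median of all genes at -0.08.

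Markers of other liver cells were examined as well. Of 12 tested T and NK cell markers 7 rose and none fell (27 listed, median 1.46). Nkg7 of cytotoxic granules stood at 7.59 to 24.1 in the 7 controls and at 22.7 to 73.6 under NDMA (1.62, SE 0.32, adjusted p = 0.00354), and the T cell receptor partner Cd3d at 0.907 to 8.67, with 15.5 in D215004, and at 10.5 to 30.9 under NDMA (1.64, SE 0.37, adjusted p = 0.00914). The list summed to 117 to 194.7 in the 7 controls, 379 in D215004 and 283 to 599.5 under NDMA, with Ccl5 the most abundant member at a mean of 65.1. Cd3e had a mean under 5, with a median of 0 in both groups. These sums moved with the interferon gamma targets above, and their part in that result was not tested. B and plasma cell markers were near the floor, with 2 of 18 tested, neither called, and sums of 30.8 to 49.2 in the 7 controls and 10.5 to 40.0 under NDMA.

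Kupffer cell and macrophage markers moved both ways, 3 higher and 5 lower of 24, with 5 and 5 without both libraries and 3 and 2 with all libraries scaled to 1 common total. The scavenger receptor gene Marco rose by 1.22, Ly6c2 by 1.26 and Lyz2 by 0.68, while Lpl, Mrc1, Clec4f, Fcna and Vsig4 fell. Adgre1 of the same list was not called, at -0.27 (adjusted p = 0.465). Clec4f, a marker of resident Kupffer cells, stood at 234 to 356 in the 7 controls, at 182 in D215004 and at 94.8 to 347 under NDMA, the highest of which is the shallow D215006 (-0.67, SE 0.20, adjusted p = 0.0433). Its call was lost in 14 of the 16 fits without 1 library (adjusted p up to 0.0998), that of Vsig4 in 12 and that of Fcna in 3. Stellate cell and fibroblast markers gave 4 lower and 1 higher of 20 (7 and 2 without both libraries), with a median of -0.65 and sums of 1396 to 2345 in the 7 controls, 1283 in D215004 and 907 to 1419.9 under NDMA. Dcn, decorin, the most abundant of them, stood at 541 to 1243 in the 7 controls and at 284 to 608 under NDMA (-1.07, SE 0.19). Ecm1 stood at 93.4 to 179 in the 7 controls, 19.3 in D215004 and 14.4 to 73.6 under NDMA (-1.97, SE 0.40). Col1a1 was not called, at -0.49 (SE 0.25, adjusted p = 0.281). Acta2, a mark of activated stellate cells, rose, from 5.97 to 18.1 in the 7 controls to 14.4 to 53.8 under NDMA (0.99, SE 0.29, adjusted p = 0.0438), and this call was lost in 10 of the 16 fits without 1 library (adjusted p up to 0.0961).

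Endothelial markers gave 3 lower and none higher of 24 (Rspo3, Tek and Mrc1) with a median of -0.47, and 7 lower without both libraries, and the call of Tek was lost in 7 of the 16 fits without 1 library. Neutrophil markers gave 1 higher of 8, Lcn2, which hepatocytes also express, while S100a8 had -0.56 (adjusted p = 0.219), and 5 of the 8 fell without both libraries. Red cell markers gave 1 lower of 13, Car2 (-0.69), and 3 lower without both libraries, had a median of -0.62 with all 13 fold changes below 0, and summed to 13975 to 52627 in the 7 controls and 13048 to 32264 under NDMA, with Hbb-bs at -0.40 (adjusted p = 0.340). Cholangiocyte markers gave 1 higher of 5, Tff3, and Krt19 and Epcam had means under 5. Of the kidney, pancreas and gut markers, Kap and Umod were at 0 in all 16 libraries, and Cela1 rose by 0.93. Alb, the defining hepatocyte product, was among the most abundant genes in every library, as the liver label has it. Of 4 tested sex genes none was called by limma. The 15 mitochondrially encoded genes are not among the genes analysed here.

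The comparison was then made within each sex, which is also within each run. In males 449 genes rose and 359 fell of 8505 (5.28% and 4.22%, 9.5% together). In females no gene was called by limma of 8541, with 954 at an unadjusted p under 0.05, and without D215004 and D215006 527 rose and 587 fell of 8454 (6.23% and 6.94%, 13.2% together), 3 mice against 3. Of the genes called higher in males and tested in females, 367 of 445 had a fold change above 0 in all 8 females and 432 of 442 in the 6, where 46.3% and 53.9% of all genes did. Of those called lower in males, 307 of 355 and 320 of 356 had one below 0, where 53.7% and 46.1% of all genes did. Ubd had a log2 fold change of 4.64 in males, 3.21 in all 8 females and 3.99 in the 6, Glul -2.45, -2.14 and -2.50, Cyp2e1 -2.02, -2.12 and -2.54, and Cdkn1a 3.37, 3.32 and 4.10. The test of the difference itself, the treatment by sex and run term, called no gene in limma over 16 libraries, with 472 at an unadjusted p under 0.05. Over 14 libraries it called 2 of 8530 (0.0234%). The neutrophil granule gene Ngp had a response lower in females by 2.64 on the log2 scale (SE 0.47, adjusted p = 0.0186), and that of Pabpc1, a poly(A)-binding protein, was higher in females by 1.63 (SE 0.30, adjusted p = 0.0186). Both were chosen after their values were seen.

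**Figure D4:**
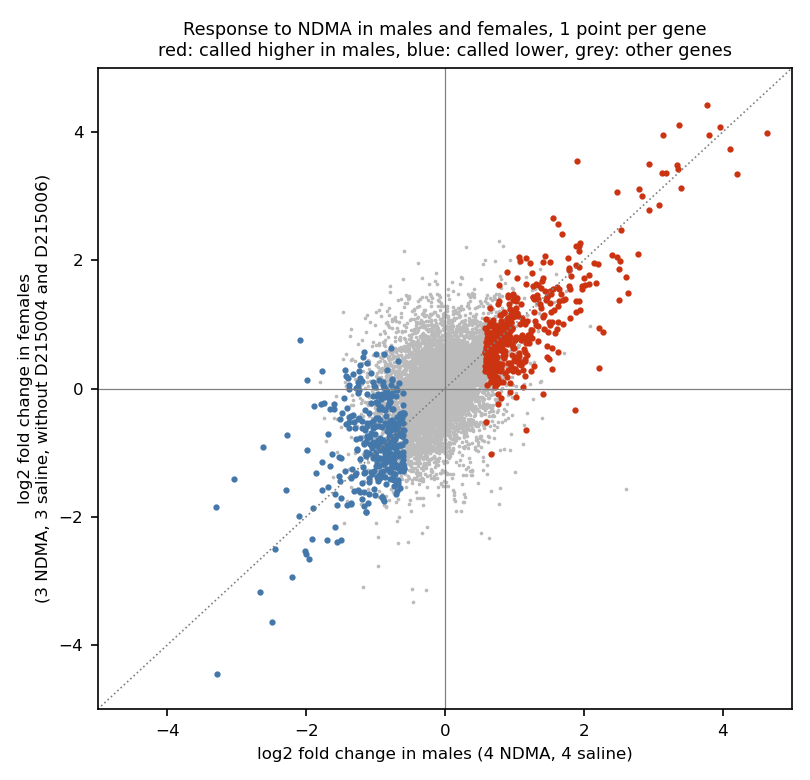
Log2 fold change under NDMA in males (x, 4 against 4) and in females without D215004 and D215006 (y, 3 against 3), 1 point for each of 7961 genes tested in both. Of the genes called higher in males (red) 432 of 442, and of those called lower (blue) 320 of 356, have the same sign in females, and the dotted line marks equal values.

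Other times and the Mgmt-/- mice used other control mice. At day 1, in 26 NDMA and 21 saline WT livers, 452 genes rose and 378 fell of 9028 (5.01% and 4.19%), and at day 5, in 8 and 7, 192 rose and 120 fell of 8654 (2.22% and 1.39%). The day 5 library labelled saline D215012 was also nearest to an NDMA library, D215013, at a chi-square per degree of freedom of 1.27. Without it 342 genes rose and 230 fell at day 5 of 8650 (3.95% and 2.66%), and why it stands there was not tested. Of the day 2 genes that rose and were tested at day 5, 268 of 280 had a fold change above 0 there, where 43.9% of all genes did, and 108 were called higher, which is 38.6% of those and 56.5% of the day 5 calls. Of those that fell, 238 of 248 had one below 0 and 71 were called lower, 28.6% and 60.2%. Without D215012, 161 of 278 were called higher and 116 of 248 lower, 57.9% and 46.8%, which is 47.2% and 51.6% of the day 5 calls. At day 1, 138 of 281 were called higher (49.1%) and 77 of 248 lower (31.0%). The treatment by time term between day 2 and day 5 called no gene of 8609 in limma (0%), with 363 at an unadjusted p under 0.05, and 24 of 8590 (0.279%) without D215004, D215006 and 2 day 5 libraries.

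Between day 2 and day 1 the same term called 262 genes of 8934 (2.93%), with the response of 92 higher and 170 lower at day 2, and 394 (4.41%) without D215004 and D215006. It called 370 (4.2%) against day 1 livers of run 191212Eng alone and 288 (3.23%) without the libraries whose sex genes go against their label. Day 1 livers came from other runs than day 2 livers, so run and time cannot be told apart. The responses most raised at day 2 were those of Neurl1b (2.08), Siah2 (2.00) and Sox4 (1.75), and the most lowered those of Gsta1 (-2.07), Gpr39 (-1.98) and Parp10 (-1.93). Neurl1b and all 3 of the most lowered had a mean under 5 normalized counts at day 2, below the filter of the day 2 comparison, and were tested here through the mean over both times. Siah2, a ubiquitin ligase gene, had a log2 fold change of 1.61 at day 2 and -0.40 at day 1, and was called higher at day 2, a call lost in 10 of the 16 fits without 1 library. Apoc2 had 1.61 at day 2 and 0.75 at day 1 (difference 0.86, adjusted p = 0.0270), and Cox7a2 0.88 and 0.21 (0.67, adjusted p = 0.0416). For Cdkn1a the values were 3.35 and 3.28, for Cyp2e1 -2.07 and -2.28, for Glul -2.29 and -1.79 and for Ubd 3.92 and 2.58, and none of these 4 differences was called.

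In Mgmt-/- liver at day 2, 8 NDMA against 7 saline mice whose values were normalized separately, fold changes are set beside those of WT without a test. These libraries came from another run than the WT libraries of day 2, so genotype and run cannot be told apart. Ubd had 6.63 there and 3.92 in WT, Cxcl10 4.40 and 2.51, Gbp2 4.28 and 1.96, Saa3 4.54 and 3.05, Cdkn1a 3.93 and 3.35, Glul -2.70 and -2.29 and Alb -0.69 and -0.92. Of the WT genes that rose, 256 of 282 had a fold change above 0 in Mgmt-/- liver, where 51.4% of all genes did, and of those that fell 218 of 249 had one below 0, where 48.6% did.

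**Figure D5:**
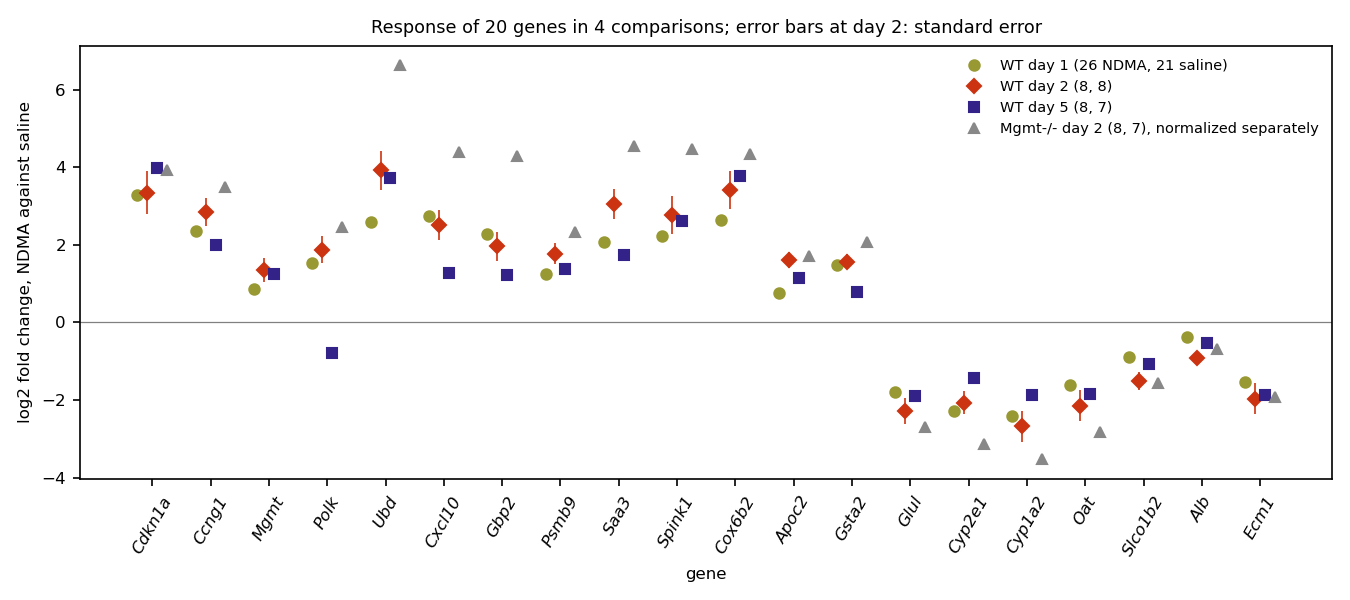
Log2 fold change under NDMA of 20 genes in WT liver at day 1, day 2 and day 5 and in Mgmt-/- liver at day 2 (y), with standard errors for WT day 2 and D215012 kept among the day 5 controls. Most keep their sign in all 4 comparisons, as Ubd with 3.92 at WT day 2 and 6.63 in Mgmt-/- liver, and Polk at WT day 5 is on the other side of 0.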

How the data were processed

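Mouse liver RNA was made into 3′ digital gene expression libraries with molecular identifiers in the reverse transcription primers, and cDNA of 24 barcoded wells was pooled. Alignment by the authors used STAR and GRCm38/mm10, genes were quantified with ESAT, and each library was divided by its DESeq2 size factor. The deposited unit is therefore a normalized signal per gene, for 18647 genes in 117 WT libraries and, normalized separately, 19540 genes in 96 Mgmt-/- libraries. Versions and the annotation are not given in the sources used here.

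Day 2 values were tested with limma 3.58.1 (R 4.3.3) as log2(value + 1), with trend and robust settings, treatment and run as terms, a mean of at least 5, and Benjamini-Hochberg adjustment. No per-mouse pairing exists in the labels. Values were divided by the worth of 1 read, which gave whole numbers within 0.001 in all 16 libraries, and these reads entered the comparison of library pairs. Those of 13 libraries were tested with edgeR 4.0.16 and DESeq2 1.42.0 as alternatives. The 3 left out were saline D202001, D202003 and D215002, in which 1 read is worth nearly 1 normalized count (0.995 to 1.01) and the step is hard to tell from rounding. Fits on the 13 therefore set fewer saline libraries, D215004 among them, against all NDMA libraries. Other alternatives were pseudocounts, filters, scaling, weights and left-out libraries. On simulated data for this comparison (8568 genes, 200 changed), limma recovered 78% of genes changed by 1 and 98% of those changed by 2 on the log2 scale, with 5.38% of calls false, and edgeR 71%, 96% and 6.70%. The changed genes were drawn only from those with a saline mean of at least 20. Genes were simulated independently, without a run effect and without a control that resembles treated mice. These shares therefore do not measure recovery or false calls in the data. Transcript lengths and positions are from GENCODE M21 and promoter windows from RefSeq on GRCm38.p6.

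The 16 libraries, the 46 gene lists (1335 genes) and the tests were chosen with earlier results of these data known. The text names the 12 largest changes of each direction with a mean of at least 20. It also names 5 of the smallest adjusted p of each direction, with ties for those that rose. Further named are up to 4 called and some of the marked members of each list, and the 3 largest called terms of each direction. Other called members were named after their values were seen. Some members of the lists are counted but not reported here by name.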

Additional observations from a re-analysis of the deposited data

Results flagged for a closer look

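In each group of 8, the highest and the lowest mouse were compared with the nearest of the others by Dixon's rule, for 38 genes shown by mouse. This marked 27 values in 76 groups, where chance marks about 1 in 20, and 20 of the 27 belong to the library labelled saline D215004, in genes that are not independent of each other. There it stood apart from the other 7 controls in normalized counts of the p53 targets Cdkn1a (212.5), Ccng1 (50.2), Phlda3 (38.6), Bax (81.1) and Eda2r (34.8), of Mgmt (85), and of the interferon genes Ubd (150.7), Cxcl9 (162), Cxcl10 (258.8), Gbp2 (243) and Psmb9 (309). The same held for Glul (88.9) and Alb (61606), both below the other controls, and for Saa1 (618), Saa3 (286), Lcn2 (147), Apoc2 (3964), Cox6b2 (124), Spink1 (459.7) and Cox7a2 (2762), all above them.

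Among NDMA libraries, D215006, which has the fewest reads, stood above the others in Cdkn1a (420.7), Cxcl9 (326), Cd74 (189), Clec4f (347) and Ecm1 (73.6). D202005 was highest in Mdm2 (20.1) and D215005 in Dcn (608).

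The response differed between day 2 and day 1 in 262 genes by the treatment by time term. Those with the largest terms were Neurl1b (2.08), Siah2 (2.00) and Sox4 (1.75), higher at day 2, and Gsta1 (-2.07), Gpr39 (-1.98) and Parp10 (-1.93), lower at day 2. Of these, Gsta1, Gpr39, Parp10 and Neurl1b had a mean under 5 in the day 2 libraries.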

How the results depend on the processing

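The 534 genes called over 16 libraries became 156 in limma on the same 13 libraries as the count tests, 1103 with array weights, 1235 without D215004 and D215006, 808 in males, 0 in females, 1114 in females without both and 284 with log2 reads as a term. With 1 library left out in turn, the count ran from 369 (without saline D215002) to 871 (without NDMA D215006), and was 782 without D215004. edgeR called 545 and DESeq2 620 on whole reads of the 13, which lack 3 saline libraries. After scaling all libraries to 1 common total, 384 rose and 181 fell, 68.0% higher against 53.4%. The treatment by sex and run term called 0 genes, and 2 without both libraries. That between day 2 and day 5 called 0, and 24 without D215004, D215006, D215012 and D215014, and that between day 2 and day 1 called 262, and 394 without D215004 and D215006. The 13-library limma fit, females without both, the reads term and these last 2 time settings, like day 5 without D215012, were added after seeing the data, and the cause of these moves was not tested. Of the 194 named genes tested, 29 changed sign in at least 1 setting and none of the 131 called did. Of the 131 calls, 105 held in all 16 fits without 1 library, and such fits lost up to 19 each. Among the other settings, the most were lost in females alone (131), in limma on 13 libraries (58), with the reads term (33), in edgeR (19) and without the run term (17), and 1 without both libraries. No paired analysis was possible because the groups share no replicate numbers. In D215006 1 read is worth 10.5 normalized counts, so genes below that level are not resolved there.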
